A study of Rattus norvegicus with 10 samples.

Results

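The titin locus was taken as the 350 kb of rat chromosome 3 between 63.5 and 63.85 Mb in build rn6, the gene with its flanks, and its members were the ATAC-seq peaks that overlap it in 5 lists from abdominal white adipose tissue and 5 from gastrocnemius muscle. Intervals listed more than once, with several summits, count as a single peak. The lists held 820 such peaks among 2119819 in all. Merged wherever they overlapped by at least 1 bp, they formed 220 of the 802351 regions of the series. The locus had been chosen because earlier results of these lists showed many peaks in muscle and few in adipose there. Numbers, widths and strengths in this comparison of tissues are therefore a description, with no test.

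ATAC-seq marks open chromatin through a transposase that cuts accessible DNA in isolated nuclei, here about 75000 nuclei per library per the labels' protocols. The rats were labelled as Fischer 344 males from an ageing colony, 8 months old, and the series compares accessibility between the tissues. The design text speaks of single animals or of tissue pooled over 15 males without saying which library is which, so the spread over libraries may be partly technical. Both tissues are mixtures of cell types, and fewer nuclei open at a site cannot be told apart from less opening per nucleus. The label of the locus was taken from its rule: no annotation of rn6 was used here, so no peak is assigned to an exon, an intron or a promoter, and marker genes of the tissues were not checked. All 10 libraries are labelled male, but adipose replicates 2, 3 and 4 had 0, 0 and 1 peaks on chromosome Y against 31 and 45 in adipose replicates 1 and 5 and 16 to 24 in muscle. Chromosome X held 3.26%, 2.78% and 3.47% of the peaks of adipose replicates 2, 3 and 4. It held 1.07% and 1.45% in adipose replicates 1 and 5 and 1.41% to 1.74% in muscle. Whether adipose replicates 2, 3 and 4 come from males was not tested, so tissue and sex may be partly mixed. Summaries over the adipose libraries are also given for adipose replicates 1 and 5 alone, and the values of single regions are given per library or over all 5.

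Titin is the giant elastic protein of striated muscle. A single molecule reaches from the Z-disc, where thin filaments are anchored, to the M-band at the middle of the thick filament, and it acts as a molecular spring, as a scaffold for sarcomere assembly and as a platform for signalling proteins. Its gene, Ttn, is among the longest in the genome and has a very large number of exons, and it is transcribed at high levels in skeletal and cardiac muscle but not in fat cells. In the RefSeq gene order of another rat assembly, GRCr8, Prkra, Pjvk, Fkbp7 and Plekha3 lie on the lower side of Ttn, and Ccdc141 and Sestd1 on the higher side. Prkra encodes an activator of a double-stranded RNA-dependent kinase, Fkbp7 an endoplasmic reticulum protein of the FK506-binding family, and Plekha3 a lipid-binding protein of the Golgi.

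The promoter of Ttn is shown as the sequence that muscle factors could read. It comes from RefSeq in GRCr8, chr3:82332131-82332360, minus strand, 230 bases from upstream of the annotated gene, printed 5′ to 3′. These coordinates belong to a build other than that of the peaks and cannot be compared with them, so no peak was placed on this sequence. Capitals mark every match found to the motifs searched on both strands: the MEF2 site (by name), the CArG box (by name), the E-box CANNTG and the MCAT element CATTCC.

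Ttn upstream sequence: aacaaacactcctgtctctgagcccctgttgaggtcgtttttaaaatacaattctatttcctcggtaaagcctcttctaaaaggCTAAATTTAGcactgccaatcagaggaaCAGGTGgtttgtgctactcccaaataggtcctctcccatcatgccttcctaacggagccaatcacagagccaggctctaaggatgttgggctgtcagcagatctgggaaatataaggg

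It held 1 match to the MEF2 site, from base 85 to base 94 counted from the 5′ end, and 1 E-box, from base 113 to base 118, which do not overlap. MEF2 factors and the E-box-binding MyoD family are regulators of muscle genes. The first 230 bases of 164 of 33469 promoters in the same table (0.49%) held a MEF2 match and those of 62.6% an E-box. A CArG box, bound by serum response factor, occurred in 1.41% of promoters and the MCAT element in 11.1%. Neither was found in this window, and a match is a description of letters, not a site.

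In muscle the locus was filled with peaks in each library. Muscle replicates 1 to 5 had 147, 149, 140, 125 and 148 peaks there, and adipose replicates 1 to 5 had 31, 16, 21, 26 and 17. The lowest muscle library thus had about 4 times as many as the highest adipose library, and the groups did not overlap. The means were 141.8 ± 10.0 in muscle and 22.2 ± 6.30 in adipose (SD, n = 5 each). The mean was 24 for adipose replicates 1 and 5 alone. Per 100000 listed peaks of the library, which allows for the longer adipose lists, the means were 81.4 ± 6.85 and 8.86 ± 2.33. Neither count allows for unlike thresholds, as lists end at a −log10 p of 2.00 in muscle and 3.26 to 4.27 in adipose. With all lists ended at the same −log10 p of 4.27, the means were 112 in muscle and 16.6 in adipose. All listed peaks together covered 15.4 ± 1.72% of the 350 kb per library in muscle and 2.11 ± 0.261% in adipose, and likewise 2.11% in adipose replicates 1 and 5 alone.

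**Figure D1:**
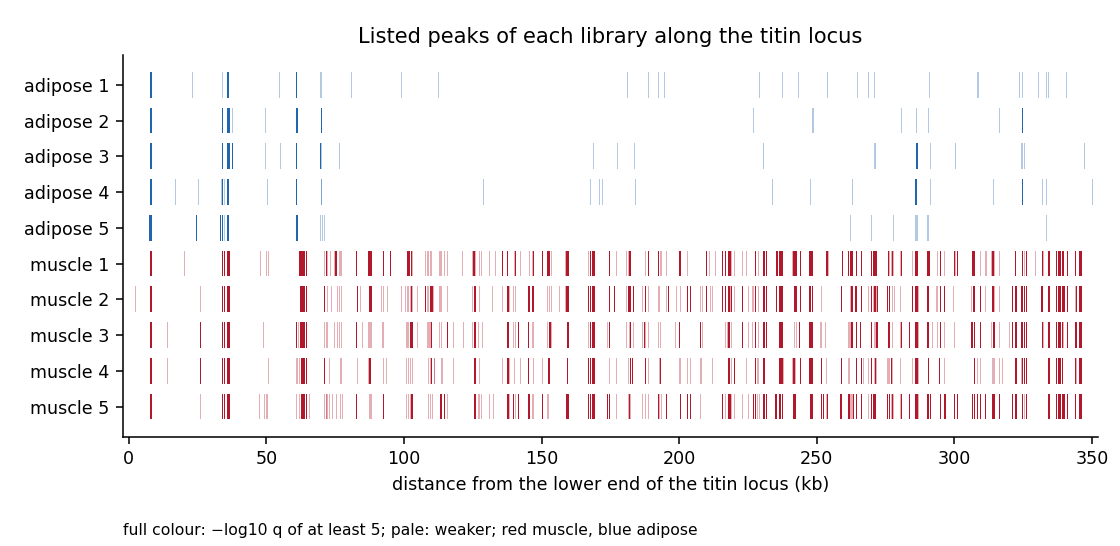
Each bar is a listed peak, drawn by its distance from the lower end of the locus in kb, with 1 row per library (red muscle, blue adipose) and full colour for a −log10 q of at least 5. Muscle rows are dense from about 60 kb to the higher end, and the adipose rows share a few peaks below 75 kb. Beyond 75 kb most adipose peaks are pale. Strong ones lie near 286 kb in adipose replicates 3 and 4 and near 324.5 kb in adipose replicates 2 and 4. Some recur there between libraries, as near 291 kb in all 5.

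Strong peaks, those with a −log10 q of at least 5 by the authors' caller, numbered 78, 82, 70, 55 and 88 in muscle replicates 1 to 5. In adipose replicates 1 to 5 they numbered 3, 8, 7, 6 and 6. Muscle replicate 4 was lowest within muscle in both counts, and adipose replicate 1 had the most peaks but the fewest strong ones within adipose. The adipose mean was 6 over the 5 libraries and 4.5 over replicates 1 and 5. In muscle 52.3 ± 5.78% of the locus peaks were strong, against 57.2 ± 6.92% of all peaks of these libraries. The share in the locus was the lower one in muscle replicates 2 to 5, and in replicate 1 it was 53.1% against 52.9%. Peaks with several summits made up 34.9 ± 4.67% of the muscle peaks in the locus and 25.6 ± 2.34% of all muscle peaks, and the share in the locus was the higher one in each of the 5 libraries. A single interval held up to 9 summits in muscle and up to 3 in adipose.

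Among 7467 other windows of 350 kb tiled along the 20 autosomes, 0 had more peaks than the locus in muscle replicates 1, 2, 3 and 5 and 1 did in muscle replicate 4. The median window held 14 to 19 peaks in a muscle library. In adipose the locus lay below the median of 31 to 35 peaks, with 4535 to 6560 windows above it. The locus was picked for this number, so its rank is a description. The 3 windows whose 10 peak numbers lay nearest to those of the locus, by Euclidean distance over the 10 libraries, were far from it. The nearest, on chromosome 2 from 199850001 to 200200000 at a distance of 112, showed 98 ± 8.72 per muscle library and 40.4 ± 7.09 per adipose library. The others, on chromosome 15 from 106400001 to 106750000 and chromosome 4 from 58450001 to 58800000, gave muscle means of 95.8 ± 4.55 and 100.6 ± 8.96 beside adipose means of 52.6 ± 4.88 and 58.2 ± 6.61.

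The muscle peaks of the locus were many but low in fold enrichment, the authors' value for the height of a summit over the caller's background. The median over locus peaks was 1.95, 1.90, 1.92, 1.90 and 2.11 in muscle replicates 1 to 5, below the median of all peaks in each of these libraries (3.17 to 4.10). In adipose replicates 1 to 5 it was 2.84, 3.18, 3.19, 2.89 and 3.08. The tissues did not overlap, and here adipose was the higher one, with a mean of 3.04 over the 5 libraries and 2.96 over replicates 1 and 5. The lowest fold listed in the locus was 2.14 to 2.43 in an adipose library and 1.28 to 1.38 in a muscle library. Whether the listing accounts for the direction was not tested.

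The fold and the p of each row together give the height of the summit and the background it was set against, since the caller takes the fold as (height + 1) over (background + 1) and the p from a Poisson tail. Solved in this way, 100% of the rows of the locus gave a height within 0.05 of a whole number in each library, as did 100% of 1 row in 10 of the whole lists. The height is a number of stacked, extended reads. The lowest background of a library, which 21.5% to 25.8% of its rows share, scales with depth and was 3.01, 3.86, 4.13, 5.23 and 3.22 in adipose replicates 1 to 5 and 4.21, 4.99, 4.63, 3.48 and 5.06 in muscle replicates 1 to 5. Heights and local backgrounds are given below as multiples of it. The caller's settings are not given, so whether the local background includes reads of nearby peaks is unknown. A raised background and a low fold are therefore not shown to be traits apart from the many peaks.

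The local background of the locus was raised in every muscle library. Its median over rows was 9.73, 9.70, 8.98, 9.75 and 7.11 times the lowest background in muscle replicates 1 to 5, and 1.15, 1.14, 1.19, 1.02 and 1.00 times in adipose replicates 1 to 5. The means were 9.05 ± 1.14 and 1.10 ± 0.0826 (SD, n = 5 each), with no overlap, and 1.08 over adipose replicates 1 and 5. Over all rows of the muscle lists the median was 1.78 ± 0.123, and between 4.57% and 13.5% of a muscle list's rows had a background at or above the median of the locus. The median summit of the locus stood at 16.8 ± 1.23 times the lowest background in muscle and at 4.56 ± 0.976 times in adipose, or 5.03 over adipose replicates 1 and 5. Listed muscle summits of the locus were therefore higher than adipose ones in height and lower in fold. The nearest windows by peak number had smaller values in muscle, at 6.06 ± 1.71 on chromosome 2, 4.07 ± 0.515 on chromosome 15 and 3.93 ± 0.508 on chromosome 4, and a higher median fold of 2.48 ± 0.332, 3.28 ± 0.245 and 2.74 ± 0.136.

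**Figure D2:**
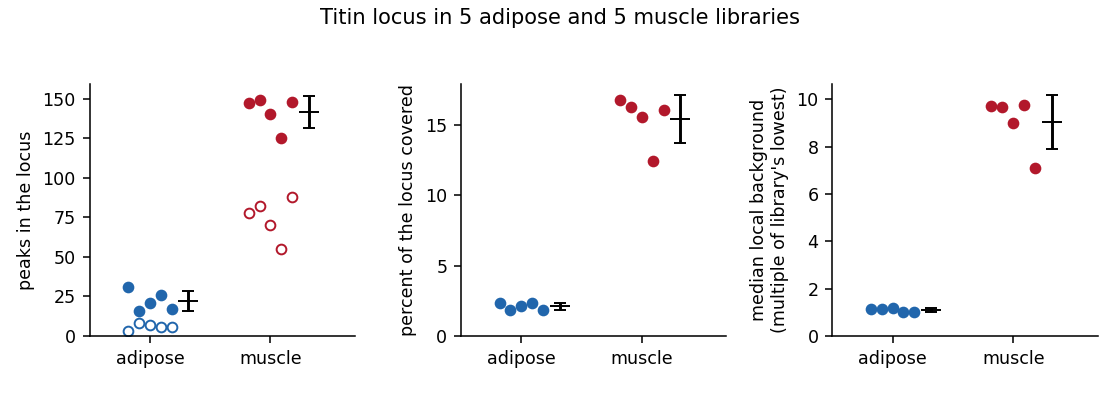
Points are the 5 libraries of each tissue, with mean and SD beside them, for peaks in the locus (open points: strong peaks), the percent of its 350 kb covered, and the median local background as a multiple of the library's lowest. Muscle and adipose points do not overlap in any of the panels, and muscle replicate 4 is lowest in muscle for peaks and cover.

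The median muscle background at listed summits was raised in every 25 kb bin of the locus, and in single bins outside it as well. In the 25 kb just below the locus it was 1.00 times the lowest in muscle. In the first 25 kb of the locus, where a muscle library had 1.8 ± 0.447 peaks, it was 7.35 ± 3.40, and in the next 25 kb 4.35 ± 0.438. Adipose was raised in these 2 bins too, at 3.76 ± 1.35 and 2.96 ± 0.498. In muscle these medians rest on few regions. In the first bin the mean muscle background was 11.2 at the region from 63507386 but 1.11, 1.03 and 1.00 at the other muscle regions. In the next bin it was 1.09 at the region from 63525894. In each of the other 12 bins of 25 kb the mean lay between 6.76 and 14.8, and the highest was the last, from 63825001 upwards, at 14.8 ± 1.83. Just past the higher end, from 63850001, it was 2.18, with 1.88 to 2.67 over the 5 libraries. Beyond these neighbours it was 7.44 (6.41 to 9.15) in the bin from 63375001 and 5.83 (5.14 to 7.99) in the bin from 63875001, as high as in some bins inside the locus. The muscle libraries had 7.8 to 13.8 peaks on average in each of these 12 bins and 3 in the bin past the end. Adipose libraries averaged 4 ± 1.22 and 3.8 ± 0.447 peaks for the bins from 63525001 and 63550001 and at most 2.4 in any later bin. The bin from 63700001 to 63725000 held 11.2 ± 2.86 peaks per muscle library but no adipose peak in any replicate.

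**Figure D3:**
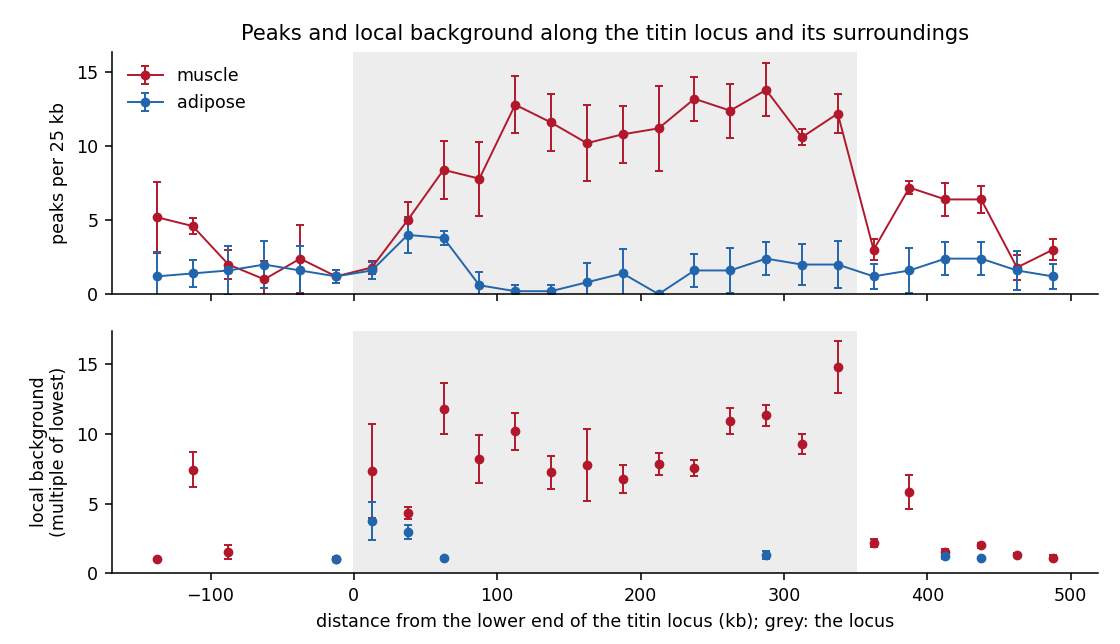
Peaks per 25 kb (top) and median local background as a multiple of the library's lowest (bottom, bins with a peak in all 5 libraries of the tissue) against distance from the lower end of the locus in kb, mean and SD over 5 libraries. The muscle background stays above 6.7 from 50 kb to 350 kb and falls to 2.18 in the bin beyond, and outside the bounds single bins reach 7.44 and 5.83.

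The windows of 350 kb on either side also had more peaks in muscle than in adipose, but fewer than the locus. The one at lower coordinates had 45.2 ± 7.46 in muscle and 30 ± 9.49 in adipose. The one at higher coordinates had 74.8 ± 3.35 and 46 ± 2.74. Their median background in muscle was 1.99 ± 0.446 and 2.61 ± 0.292 times the lowest. Both bounds of the locus fell in stretches without a region called in all muscle libraries, and the stretch at the higher bound was the shorter. The region with a peak in all muscle libraries that lies nearest inside the lower bound began at 63507386 with a fold of 19.9 ± 0.722, and the nearest outside it, from 63403600 to 63404219, had 6.76 ± 1.94. At the higher bound the last one inside, from 63845343 to 63846400, had 8.86 ± 1.22 and the first one outside, from 63854233 to 63855162, had 19.5 ± 3.14.

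Of the 220 regions, 157 had peaks in muscle libraries alone, 25 in adipose libraries alone and 38 in both tissues. In a single library were 62 of them, 44 from muscle and 18 from adipose. More than 1 library called 158 regions, and 68 of these had a peak in each of the 5 muscle libraries, where the same holds for 26.9% of such regions over the genome. There were 44 with a peak in all 5 muscle libraries and in no adipose library. Over the genome 5.7% of such regions meet this rule, and since the locus was chosen on this contrast nothing is read from the count. It was 52 when adipose replicates 2, 3 and 4 were left out. Among strong peaks it was 29 of 89 regions, against 15% over the genome. Regions called in all 10 libraries were 4 of 158, against 12.3% over the genome. With adipose replicates 1 and 5 alone, 24 regions were called in both tissues, 15 in adipose alone and 4 in all the libraries kept.

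The 44 muscle-exclusive regions were spread over 12 of the 14 bins of 25 kb, from 63562019 to 63846400, with none in the lowest 50 kb and the most (7) in the last bin. They were 234 to 2233 bp wide with a median of 638.5 bp and took 32.9 kb together. The median distance from one to the next was 4927 bp and the longest stretch without one was 22967 bp, from 63742824 to 63765790. Their mean fold ranged from 1.51 to 8.86 with a median of 2.21, and in 38 of them it was below 3. In 19 of them the peak was strong in all 5 libraries and in 4 it was strong in none. The fold varied over the 5 libraries with a median coefficient of variation of 12.1%. The best summits of the 5 libraries lay within 50 bp of one another in 15 of these regions and more than 500 bp apart in 6, with a median range of 115.5 bp.

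The highest fold of the locus was at chr3:63507386-63508509, a region called in all 10 libraries. Its fold was 20.2, 19.0, 19.6, 19.8 and 20.9 in muscle replicates 1 to 5 and 12.8, 13.7, 16.1, 17.4 and 16.0 in adipose replicates 1 to 5. Each muscle library lay above each adipose library, by a small margin beside the scatter of adipose. The heights were 747 to 1440 in muscle and 169 to 457 in adipose, or 227.6 ± 33.5 and 77.4 ± 13.7 times the lowest background.

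The next highest, at chr3:63535653-63536755, was also called in all 10. Its fold was 12.9, 10.5, 10.9, 10.0 and 13.3 in muscle and 5.55, 5.42, 7.35, 9.24 and 6.19 in adipose. The groups did not overlap, with the lowest muscle library just above the highest adipose one. Another region called in all 10, at chr3:63533734-63534392, had 3.20 ± 0.464 in muscle and 3.68 ± 1.07 in adipose, which overlap. These 3 lie in the lowest 50 kb, below the stretch that holds the muscle-exclusive regions.

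The fourth, at chr3:63790077-63791375, lay inside that stretch. Its fold was alike in the tissues, at 3.52, 2.74, 2.57, 2.39 and 3.34 in muscle and 3.06, 2.63, 3.37, 3.03 and 3.56 in adipose. Its height was not, at 180, 180, 138, 104 and 209 reads in muscle and 19, 15, 19, 21 and 14 in adipose. The background around it was 12.2 ± 0.562 times the lowest in muscle and 1.31 ± 0.318 times in adipose. Of the 38 regions called in both tissues, 31 had the higher mean fold in adipose, while all 38 had the higher mean height and the higher mean background in muscle, as multiples of the lowest background. With adipose replicates 1 and 5 alone these were 18 and 24 of 24. The means are over libraries that list a peak, and in 26 of the 38 regions a single adipose library does. Listed adipose folds begin above 2 and muscle folds below 1.4 in this locus. How far this sets the direction of the fold was not tested, and nothing is read from that direction. A listed muscle summit also has to exceed its raised local background, and libraries without a listed peak drop out of the means. How far background and listing set the direction of the height was not tested, and nothing is read from that direction either.

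**Figure D4:**
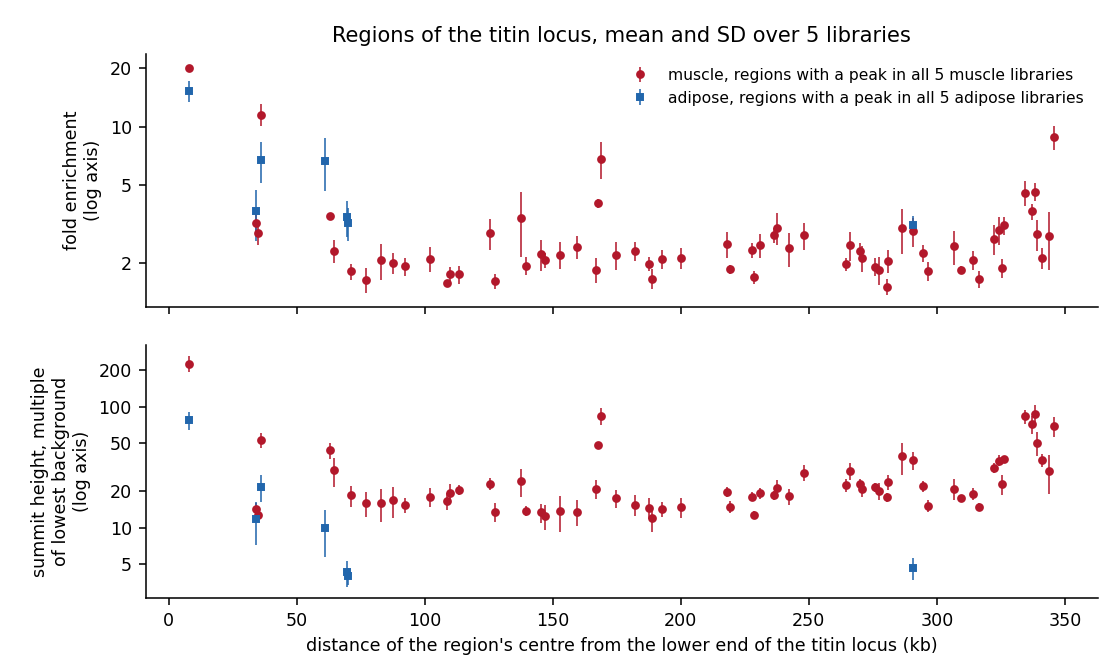
Each point is a region, by the distance of its centre from the lower end of the locus in kb, with mean and SD over 5 libraries (red muscle, blue adipose; both vertical axes logarithmic). Most muscle regions sit near a fold of 2, whereas their summit heights are mostly between 12 and 90 times the lowest background, above adipose regions of similar fold.

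Near the higher end, the muscle-exclusive region with the highest fold was chr3:63845343-63846400, at 8.90, 7.76, 7.71, 9.26 and 10.7 in muscle replicates 1 to 5. Its summits stacked 255, 285, 291, 271 and 446 reads and lay within 28 bp of one another. A neighbouring cluster, singled out after its values were seen, had the highest background of the locus. It held 5 regions with a peak in all muscle libraries within 7.50 kb, from 63833807 to 63841308, with backgrounds of 16.9 to 19.1 times the lowest. Their mean folds were 2.13 to 4.65 and their heights 36.1 to 87.2 times the lowest background. The tallest of them, chr3:63837654-63838677, had a fold of 4.40, 4.11, 4.61, 4.73 and 5.43 and 295, 365, 407, 323 and 568 stacked reads. Its best summits were up to 695 bp apart, as the libraries placed them at different points of a wide peak. The one at chr3:63833807-63834652 (4.58 ± 0.667) had its summits within 16 bp, and adipose replicate 1 had a peak of 13 stacked reads there. The one at chr3:63836984-63837358 (3.69 ± 0.341) had no adipose peak.

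In the middle of the locus, chr3:63668361-63669517 stood out from its surroundings. Its fold was 4.72, 6.66, 7.26, 6.80 and 8.81 in muscle, with 254, 418, 415, 312 and 476 stacked reads and summits within 12 bp. Among the adipose libraries replicate 3 alone had a peak there, with 14 stacked reads. Its neighbour at chr3:63667499-63668048 had a fold of 4.06 ± 0.219 in muscle and a single adipose peak of 17 stacked reads in replicate 4.

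The lower border of the dense stretch was marked by chr3:63562019-63564210, the region whose fold varied least among those with a peak in all 5 muscle libraries, at 3.57, 3.43, 3.45, 3.47 and 3.56 (coefficient of variation 1.89%). At 2192 bp it was also the second widest region, after chr3:63601170-63603402 with 2233 bp, which each muscle library split into 3 or 4 peaks, and before chr3:63747191-63748840 with 1650 bp. Adipose listed no peak in the first and the second, and peaks in replicates 2 and 4 in the last. The next least variable region, chr3:63608252-63608950, had a fold of 1.58 ± 0.0532 and was strong in no library. The most variable were chr3:63637257-63638038, at 2.58, 3.05, 3.01, 2.72 and 5.59, and chr3:63843755-63843988, at 3.64, 1.66, 2.66, 2.11 and 3.69. In the former muscle replicate 5 alone was high, and in the latter replicates 1 and 5 were.

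A few regions were regular in adipose. At chr3:63560666-63561410, just below the border region, all 5 adipose libraries had a strong peak, with a fold of 4.74, 5.79, 10.1, 6.37 and 6.53. Muscle replicates 3, 4 and 5 had a peak there with a fold of 1.79, 1.81 and 1.60. The heights ran the other way, at 19.5 ± 4.73 times the lowest background over those 3 muscle libraries and 9.89 ± 4.20 times over the 5 adipose libraries. The adjacent regions chr3:63569627-63569889 and chr3:63569924-63570378 had a peak in all 5 adipose libraries and in no muscle library, with folds of 3.44 ± 0.718 and 3.22 ± 0.611. Such regions were 2 of the 158, against 1.74% over the genome, and 3 had a peak in both adipose replicates 1 and 5 and in no muscle library. One more, chr3:63833180-63833635, was called in adipose replicates 1, 4 and 5 and in no muscle library.

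At these 3 the adipose summits stood at 4.28, 3.97 and 3.75 times the lowest background on average, while the muscle background at the nearest muscle summit was 10.2, 10.2 and 18.1 times the lowest. Of the 25 regions listed in adipose alone, 18 had their highest adipose summit below the lowest of the 5 muscle backgrounds at the nearest summit, up to 3724 bp away within the 18. The lists give no muscle height or background at these places themselves, so whether muscle chromatin was less open there cannot be told.

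Peaks fell at the same places in the muscle libraries about as often as they did over the whole lists. The Jaccard index, shared over joint peak length, averaged 0.542 over the 10 pairs of muscle libraries inside the locus (0.487 to 0.584) and 0.553 over all peaks. It was 0.282 over the 10 pairs of adipose libraries (0.215 to 0.349), 0.246 for the pair of replicates 1 and 5, and 0.296 over all peaks. Between tissues it was 0.0721 over 25 pairs inside the locus (0.0589 to 0.0945), 0.0699 over the pairs with adipose replicates 1 and 5, and 0.253 over all peaks. Peaks of at least 1 muscle library covered 90.3 kb of the locus, and 24.6 kb of it, 27.2% of that length, lay in peaks of all 5.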

How the data were processed

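Per the submitters' processing notes, the tools were MACS2, Bowtie2, Picard, Trimmomatic and FastQC, with no version or setting, on build rn6. Shifting and deduplication of reads are not given in the sources used here. Each library has its own list in narrowPeak layout. The deposited values are a score, equal to the −log10 p times 10 without its decimals, a fold enrichment ratio at the summit, and a −log10 p and q for each summit, as the authors' caller wrote them. The adipose lists end at a −log10 p of 3.26 to 4.27 and the muscle lists at 2.00, so counts do not share a threshold.

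Rows with the same interval were counted as 1 peak with its highest fold, −log10 p and −log10 q. A library's value in a region is its highest fold there. Named regions were the 10 with the highest mean fold among those called in all 5 muscle libraries, those called in all 10, the 3 widest, the 2 with the largest and the 2 with the smallest coefficient of variation in muscle, and those called in at least 3 adipose and no muscle libraries. The adipose region at 63560666 and the cluster near the higher end fall outside this rule in part and were chosen after their values were seen. Height and background were solved from fold and −log10 p by bisection, an analysis added after seeing the data and tested on simulated data, as was the merging. The members and lists were chosen with earlier results of these data known. No test was made, since the locus was chosen on the tissue contrast. Read totals and intervals are unknown. Depth is relative only. The software was pandas 2.3.3, SciPy 1.17.1, NumPy 2.4.6 and matplotlib 3.10.9 in Python 3.11.15. The alternatives tried concern thresholds, list lengths, bounds, scaling, overlap and leaving out each library.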

Additional observations from a re-analysis of the deposited data

Results flagged for a closer look

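Of the 38 sets of 5 libraries examined, 3 had an end value that stood apart from the other 4, where chance alone gives about 1 in 20 sets. Peaks of muscle replicate 4 covered 12.4% of the locus, below 15.5% in the nearest muscle library. The median fold enrichment over locus peaks was 2.11 in muscle replicate 5, above 1.95 in the nearest. At chr3:63637257-63638038 the fold was 5.59 in muscle replicate 5, above 3.05 in the nearest.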

How the results depend on the processing

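No paired analysis was possible because the values come from no test. Rats carry the numbers 1 to 5 in either tissue, and muscle had 116, 133, 119, 99 and 131 more peaks than adipose of the same number. Adipose replicates 2 to 4 had 0, 0 and 1 peaks on chromosome Y and muscle replicates 2 to 4 had 17 to 24, so libraries of the same number differ in this. The mean number of peaks per muscle library, 141.8, was 74.6 at a −log10 q of at least 5, 16 among the 50000 strongest peaks per library, 112 where all lists were ended at the same −log10 p of 4.27, 96 in the inner 200 kb and 81.4 per 100000 listed peaks. In adipose, 22.2 became 6 at that −log10 q, 4 among the strongest peaks, 16.6 with lists ended alike, 8.2 in the inner 200 kb and 8.86 per 100000. The 44 muscle-exclusive regions became 29, 8 and 28 at that −log10 q, in the strongest peaks and in the inner 200 kb, 33 with lists ended alike and 30 where a library's peaks had to cover 50% of a region. The muscle cover of 15.4% became 10.0% at that −log10 q, 3.30% in the strongest peaks, 13.2% with lists ended alike and 17.2% in the inner 200 kb. Stricter lists hold fewer peaks by construction. The muscle background of 9.05 was 5.10 over the library's median background. Leaving out single libraries gave 140 to 146 peaks in muscle, 20 to 23.8 in adipose, 46 to 55 exclusive regions, 15.1% to 16.1% cover and a background of 8.88 to 9.54. The settings on the background and with adipose replicates 1 and 5 alone were chosen after seeing the data.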
